A study of Homo sapiens with 6 samples.

Results

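The 10 genes described here encode receptor tyrosine kinases of carcinoma cells: the epidermal growth factor receptor family members EGFR, ERBB2 and ERBB3, the hepatocyte growth factor receptor MET, the GAS6 receptor AXL, the ephrin receptor EPHA2, the insulin-like growth factor and insulin receptors IGF1R and INSR, the fibroblast growth factor receptor FGFR1, and the collagen receptor DDR1. They were chosen by symbol, and all 10 were found among the 25969 gene identifiers of the files through GENCODE 29. All 10 were among the 20927 genes tested. RNA was sequenced from cells labelled LNCaP, a prostate cancer line. In 3 libraries the cells carried an overexpression vector for VIM-AS1, which is a noncoding transcript from the strand opposite vimentin, and in 3 libraries the cells, of genotype WT, carried the pcDNA3.1 vector as the control. Both groups had thus been transfected. The labels give neither the promoter of the VIM-AS1 vector nor the time after transfection. They also do not say that replicates were separate cultures, and the p-values below therefore cover the variation among these 6 libraries, which may be technical. In such bulk samples, fewer cells of a type and less RNA per cell cannot be told apart.

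Receptor tyrosine kinases cross the cell membrane, bind a ligand outside the cell and, once paired, phosphorylate tyrosines on each other. Adaptors such as GRB2, SHC1 and the insulin receptor substrates IRS1 and IRS2 dock there and pass the signal to the RAS-ERK and PI3K-AKT pathways, while phosphatases, ubiquitin ligases and the Sprouty proteins restrain it. In prostate cancer, LNCaP is known as an androgen-sensitive luminal line with ERBB2 and ERBB3, whereas AXL, MET and EPHA2 are known mainly from androgen-independent lines. Gene positions are those of GENCODE 29 on GRCh38. Values are normalized read counts as deposited, and a level compared between genes is divided by the length of the gene's exons.

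The transcripts of these cells went against part of the LNCaP label. KLK3, which encodes the prostate-specific antigen, had 0 reads in each VIM-AS1 library and 2 reads in all 3 controls together, and FOLH1, the prostate-specific membrane antigen gene, had 0 reads in each VIM-AS1 library and 6 reads in the controls together. The luminal keratin KRT8 was at 51010 to 90150 normalized reads with VIM-AS1 and 55110 to 99730 in the controls. Of 12 markers of basal cells and of prostate lines unlike LNCaP, CD44 stood at 2549 to 2588 normalized reads with VIM-AS1 and 2160 to 2562 in the controls, and CAV1 at 1039 to 1689 and 928 to 1351, whereas KRT5 did not exceed 4.21 in any library. The summed level of those 12 markers was 10030 to 10850 with VIM-AS1 and 10480 to 11900 in the controls. With the term for the third libraries described below, 3 of the 12 were lower and 0 higher: KRT15 (log2 fold change -1.47, limma, adjusted p = 0.00138), TP63 (-1.79, 0.00681) and LAMB3 (-0.45, 0.00446). The sum of 7 fibroblast markers was 1795 to 2563 against 2876 to 3721. Of these, COL1A1 was at 846 to 1330 normalized reads against 1426 to 1651, and PDGFRB at 806 to 1123 against 1092 to 1851. DCN was at 90.6 to 118.7 against 207.7 to 342. THY1 went the other way, at 14.3 to 16.9 against 0.79 to 7.33 (log2 fold change 1.97, limma with the term, adjusted p = 0.0148, and 0.195 without it). COL3A1 did not exceed 12.6 in any library and COL1A2 did not exceed 2.05, while LUM was at 0 in every VIM-AS1 library and in 2 controls. The sum of 3 leukocyte markers was 40.2 to 46.4 against 43.4 to 75.8. The part of any such cells in the results was not tested. VIM-AS1 itself was at 2197, 2019 and 2763 normalized reads in its overexpression libraries, against 8.63, 1.22 and 5.53 in the controls.

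Library 3 of both groups lay apart from libraries 1 and 2, and the tests differ in how they treat it. In limma with no further term, 5 of 20927 genes (0.0239%; 0.0143% higher and 0.00956% lower) passed an adjusted p of 0.05 and 0 of the 10 receptor genes did. ERBB3, IGF1R and MET, or 3 members, had an unadjusted p under 0.05 in that fit. edgeR on the recovered reads called 0.0191% of genes (0.00956% in each direction) and 0 members, with 3 under an unadjusted p of 0.05, and DESeq2 and limma-voom also called 0 members. With a term for the third libraries, a term picked in these same data, limma called 6 members higher and 1 lower, against 11.5% higher and 7.94% lower over all tested genes (19.4% in all). edgeR with that term also called 6 higher and 1 lower, against 11.4% and 8.64% of all genes (20.1% in all). Among the 9758 tested genes with a mean of at least 100, as 9 of the members have, limma with the term called 23% higher and 9% lower. With the replicate number as a block, limma called 7 higher and 1 lower, against 15.8% and 10.8% of all genes (26.6% in all). That block assumes that same-numbered libraries belong together, which the labels do not state. In what follows a gene "rose" or "fell" if limma with the added term gave it an adjusted p below 0.05, and SE values come from that fit. Calls were lost with fewer libraries. Without VIM-AS1 replicate 3, without control replicate 3, or with only the first and second libraries, all of which leave 2 against 2 for the comparison, limma called 0 members, with 7 under an unadjusted p of 0.05. The log2 fold changes were then 0.41 for EGFR, -1.23 for ERBB3, 0.71 for MET, 0.46 for AXL, 0.43 for EPHA2, 0.53 for IGF1R and 0.49 for FGFR1. Without VIM-AS1 replicate 2, 4 members rose and 1 fell.

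EPHA2 was the most abundant of these receptors and ERBB3 the least. Per kb of exon, EPHA2 averaged 885 ± 179 normalized reads with VIM-AS1 and 648 ± 148 in the controls (SD, n = 3 each), and AXL averaged 369 ± 60.8 and 261 ± 59.2. With VIM-AS1 the ranges of DDR1, IGF1R, EGFR and ERBB2, with means of 198, 195, 193 and 160, overlapped from each to the next, so their order was not resolved. MET followed at 81.9 ± 32.6 and stood below ERBB2 and above INSR without overlap, while INSR at 39.0 ± 3.84 and FGFR1 at 37.6 ± 9.26 overlapped. ERBB3 was at 4.17 ± 0.23 with VIM-AS1 and 8.81 ± 1.51 in the controls. In the controls EPHA2 again stood clear of AXL, and the neighbours from AXL to ERBB2 overlapped, as did MET and INSR. With the longest transcript in place of the union of exons, the positions of DDR1, ERBB2 and FGFR1 moved up by 1 or 2 places, and EPHA2 stayed the highest and ERBB3 the lowest.

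**Figure D1:**
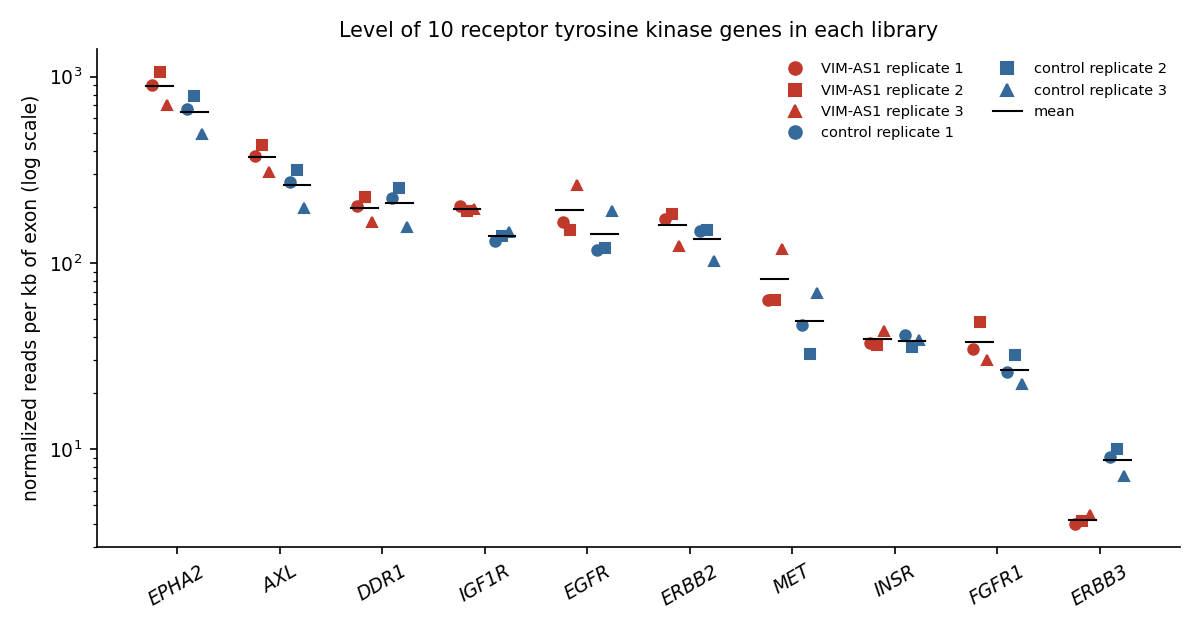
Normalized reads per kb of exon (log scale) of the 10 receptor genes, with 3 VIM-AS1 libraries left of 3 control libraries for each gene. Points are libraries, shaped by replicate number, and bars are means. EPHA2 averages 885 with VIM-AS1 and 648 in the controls, ERBB3 4.17 and 8.81.

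Of the epidermal growth factor receptor family, ERBB3 fell, EGFR rose and ERBB2 did not pass. ERBB3 (ENSG00000065361, chr12:56076799-56103505, plus strand) binds neuregulins, has a kinase domain of very weak activity and signals mostly through its partner ERBB2, with many docking sites for PI3K. It had 35.8, 37.2 and 39.9 normalized reads with VIM-AS1 (34, 38 and 39 recovered reads), against 82.5, 91.6 and 64.8 in the controls (86, 75 and 82 recovered reads). Every VIM-AS1 library lay below every control. The log2 fold change was -1.05 ± 0.24 (SE; limma with the term, adjusted p = 0.00427; without it 0.166; with the replicate block 0.00124), so the level with VIM-AS1 was 0.484 of that in the controls. With so few reads the change is less precise than those of the other members, with a 95% interval of -1.55 to -0.54 on the log2 scale.

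EGFR (ENSG00000146648, chr7:55019021-55211628, plus strand), the receptor of EGF and TGFA, had 2074, 1892 and 3290 normalized reads with VIM-AS1, against 1472, 1505 and 2393 in the controls. The third library was the highest of each group, and control replicate 3 lay above VIM-AS1 replicates 1 and 2. Its log2 fold change was 0.43 ± 0.10 (limma with the term, adjusted p = 0.00445; without it 0.542; with the replicate block 0.000137). ERBB2 (ENSG00000141736, chr17:39687914-39730426, plus strand), which has no known ligand and pairs with the other family members, had 1790, 1896 and 1269 normalized reads with VIM-AS1, against 1530, 1563 and 1064 in the controls. Here the third library was the lowest of each group, and the groups overlapped. Its log2 fold change of 0.25 ± 0.10 did not pass (limma with the term, adjusted p = 0.0803, 95% interval 0.05 to 0.46), while with the replicate block the adjusted p was 0.0152. Of the exon bases of ERBB2, 571 (5.53%) are also exon of MIEN1 and 194 of PGAP3 on the opposite strand, and no source used here gives the strand setting, so reads there cannot be told apart. The overlap with EGFR-AS1 was 186 bases (1.49% of EGFR exon).

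ERBB4, the remaining receptor of the family, and a neuregulin ligand were near the limit of detection. ERBB4 had 2, 3 and 0 recovered reads with VIM-AS1, against 12, 13 and 23 in the controls, and fell (limma with the term, adjusted p = 0.00283; without it 0.105). NRG1, a ligand of ERBB3 and ERBB4, had 25, 20 and 26 recovered reads with VIM-AS1, against 13, 0 and 16 in the controls, and rose (limma with the term, adjusted p = 0.0343; without it 0.313). NRG1 was 1 of 2 ligands that rose. With the term, only 1 ligand was called higher by edgeR, by DESeq2, without a filter and with a pseudocount of 0.1. Up to 3 reads could go unseen in a library with 0, a limit that covers counting error only. GRB7, an adaptor whose gene lies close to ERBB2 on chromosome 17 and which binds ERBB2 and ERBB3, also fell, without overlap. It had 487, 565 and 343 normalized reads with VIM-AS1, against 973, 1167 and 680 in the controls (log2 change -1.01 ± 0.12; limma with the term, adjusted p = 8.55e-06; without it 0.15).

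MET, AXL and EPHA2 all rose. MET (ENSG00000105976, chr7:116672390-116798386, plus strand), the receptor of hepatocyte growth factor, drives scattering and invasive growth. It had 444, 445 and 841 normalized reads with VIM-AS1, against 325, 227 and 483 in the controls. The third library was the highest in both groups, and control replicate 3 lay above VIM-AS1 replicates 1 and 2. The log2 fold change of MET was 0.74 ± 0.13, or 1.67-fold (limma with the term, adjusted p = 0.000628; without it 0.358; with the replicate block 1.02e-05), with 0.45, 0.97 and 0.80 in the same-numbered pairs.

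AXL (ENSG00000167601, chr19:41219203-41261766, plus strand), a receptor of the TAM family linked to drug tolerance, had 1940, 2199 and 1575 normalized reads with VIM-AS1, against 1395, 1621 and 1017 in the controls. The third libraries were the lowest, and control replicate 2 lay above VIM-AS1 replicate 3. The difference was 0.51 ± 0.11 on the log2 scale (limma with the term, adjusted p = 0.00181; without it 0.373; with the replicate block 1.98e-05). EPHA2 (ENSG00000142627, chr1:16124337-16156087, minus strand), a receptor of A-type ephrins on neighbouring cells, had 3728, 4403 and 2914 normalized reads with VIM-AS1, against 2778, 3262 and 2040 in the controls. The order of the libraries was that of AXL, with control replicate 2 above VIM-AS1 replicate 3. For EPHA2 the log2 fold change was 0.46 ± 0.11 (limma with the term, adjusted p = 0.00502; without it 0.452; with the replicate block 4.73e-05), and without VIM-AS1 replicate 2 it was 0.40 and did not pass (adjusted p = 0.066).

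Of 5 A-type ephrins tested, EFNA1, EFNA3 and EFNA4 fell, and EFNA2 (0.03, limma with the term, adjusted p = 0.965) and EFNA5 (-0.19, adjusted p = 0.641) did not pass. Those that fell were the only 3 of 19 tested ligands to do so, while 2 ligands rose. Over all tested genes 7.94% fell and 11.5% rose. EFNA1, the main known ligand of EPHA2, had 1821, 1999 and 1414 normalized reads with VIM-AS1, against 3023, 3374 and 2188 in the controls, and fell without overlap (log2 fold change -0.71, limma with the term, adjusted p = 8.3e-05; without it 0.231). EFNA3 and EFNA4 had log2 fold changes of -0.74 and -0.42 (limma with the term, adjusted p = 0.00465 and 0.0225). EFNA1, EFNA2, EFNA4 and EFNA5 were singled out after their values were seen. GAS6, the ligand of AXL, was at 397, 429 and 228 normalized reads with VIM-AS1, against 426, 468 and 298 in the controls, and did not pass (limma with the term, adjusted p = 0.288).

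IGF1R rose and its close relative INSR did not pass. IGF1R (ENSG00000140443, chr15:98648539-98964530, plus strand) binds IGF1 and IGF2 and supports survival and growth of carcinoma cells. It had 2810, 2645 and 2712 normalized reads with VIM-AS1, against 1840, 1938 and 2054 in the controls. Every VIM-AS1 library lay above every control, the 1 member higher without overlap, as were 9.5% of all tested genes. ERBB3 was the 1 member lower without overlap, as were 10.3%, and 19.8% of genes did not overlap in either direction. For IGF1R the log2 fold change was 0.49 ± 0.10 (limma with the term, adjusted p = 0.00168; without it 0.299; with the replicate block 3.2e-05). INSR (ENSG00000171105, chr19:7112255-7294034, minus strand), the insulin receptor, had 390, 379 and 453 normalized reads with VIM-AS1, against 429, 370 and 401 in the controls. Its log2 fold change was 0.02 ± 0.12 with a 95% interval of -0.23 to 0.28 (limma with the term, adjusted p = 0.92). Per kb of exon there were 5.40, 5.23 and 4.48 IGF1R reads for each INSR read with VIM-AS1, against 3.22, 3.92 and 3.84 in the controls (exact permutation test on the log2 ratios, two-sided, p = 0.1, the smallest that 3 against 3 libraries allows).

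Both insulin receptor substrates rose. IRS2, a docking protein for PI3K, had 1644, 1741 and 2140 normalized reads with VIM-AS1, against 923, 877 and 1122 in the control libraries (log2 fold change 0.92 ± 0.10, limma with the term, adjusted p = 4.87e-06; without it 0.113). IRS1 had 925, 884 and 1000 normalized reads with VIM-AS1, against 605, 616 and 590 (0.63, adjusted p = 0.000338 by limma with the term), and was singled out after its values were seen. Neither gene's groups overlapped. Of 6 tested binding proteins of insulin-like growth factors, including the clearance receptor IGF2R, 4 rose and 0 fell with the term (66.7% called, against 19.4% of all tested genes), compared with 4 and 1 with the replicate block and 0 and 0 without VIM-AS1 replicate 3 or control replicate 3. They included IGFBP3, the main carrier in blood, at 2989, 3322 and 2979 normalized reads with VIM-AS1 against 1776, 2195 and 1965 in the controls (0.65 ± 0.11, limma with the term, adjusted p = 0.000292), IGFBP4 (0.66 ± 0.11) and IGFBP1 (0.78 ± 0.17). IGF1 had at most 3.67 normalized reads in any library.

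FGFR1 rose and DDR1 did not pass. FGFR1 (ENSG00000077782, chr8:38400215-38468834, minus strand) had 478, 664 and 419 normalized reads with VIM-AS1, against 359, 446 and 309 in the controls. VIM-AS1 replicate 2 was the highest library, and control replicate 2 lay above VIM-AS1 replicate 3. Its log2 fold change was 0.48 ± 0.14 (limma with the term, adjusted p = 0.0181; without it 0.435; with the replicate block 0.000562), and it lost the call under library size scaling (adjusted p = 0.0533) and without VIM-AS1 replicate 2 (log2 fold change 0.33, limma with the term, adjusted p = 0.181). DDR1 (ENSG00000204580, chr6:30876421-30900156, plus strand) had 1837, 2068 and 1507 normalized reads with VIM-AS1, against 2035, 2305 and 1419 in the controls. Its log2 fold change was -0.07 ± 0.11 with a 95% interval of -0.29 to 0.15 (limma with the term, adjusted p = 0.695). The level was lower with VIM-AS1 in the first and second pairs and higher in the third.

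**Figure D2:**
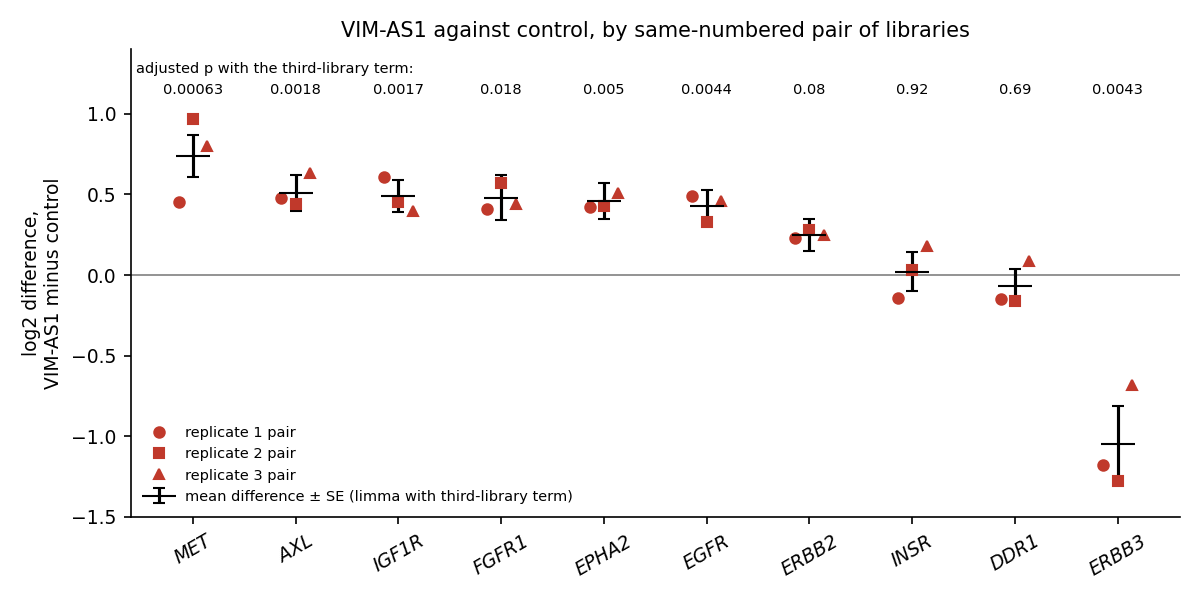
Log2 difference of VIM-AS1 minus control for each receptor gene in the 3 same-numbered pairs of libraries (points), with the mean and its SE from limma with the term for the third libraries (bars) and that fit's adjusted p above. The pairs of MET lie at 0.45, 0.97 and 0.80, those of ERBB3 at -1.18, -1.28 and -0.68, and those of INSR and DDR1 fall on both sides of 0.

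Same-numbered libraries differed in 1 direction for 8 of the 10 members, 7 higher and 1 lower. Over all tested genes 26.8% were higher in all 3 pairs and 25% lower (51.8% in all), and among those with a mean of at least 100 the share higher was 44.9%. The median log2 fold change of the 10 members was 0.44, against -0.02 over all tested genes and 0.11 over those with a mean of at least 100. The summed level of the members was 15020 to 16630 normalized reads with VIM-AS1 and 11240 to 13330 in the controls.

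Among the 10 members the shift of the third libraries went with the GC content of the transcript, though not for every gene. Averaged over both groups it was -0.40 for FGFR1 (51.3% GC) and 0.06 for IGF1R (51.7% GC). In the third libraries MET, with the lowest GC content of the 10 (42.4%), was 0.92 higher on the log2 scale with VIM-AS1 and 0.83 higher in the controls than in the first and second libraries of the same group. EGFR, with 47.5% GC, was 0.73 and 0.68 higher. EPHA2, with 60.3% GC, was 0.48 lower with VIM-AS1 (-0.48) and 0.56 lower in the controls (-0.56). Across the 10 genes this shift had a Pearson r of -0.87 with GC content (Spearman rho -0.92), while the difference of VIM-AS1 minus control had an r of -0.21 (rho -0.37). The genes share the same 6 libraries, so these are descriptions. After each library's trends with GC content and exon length were removed, limma without the term called 4 members higher (MET, AXL, EPHA2 and IGF1R) and ERBB3 lower, against 7% and 3.35% of all tested genes (10.4% in all).

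**Figure D3:**
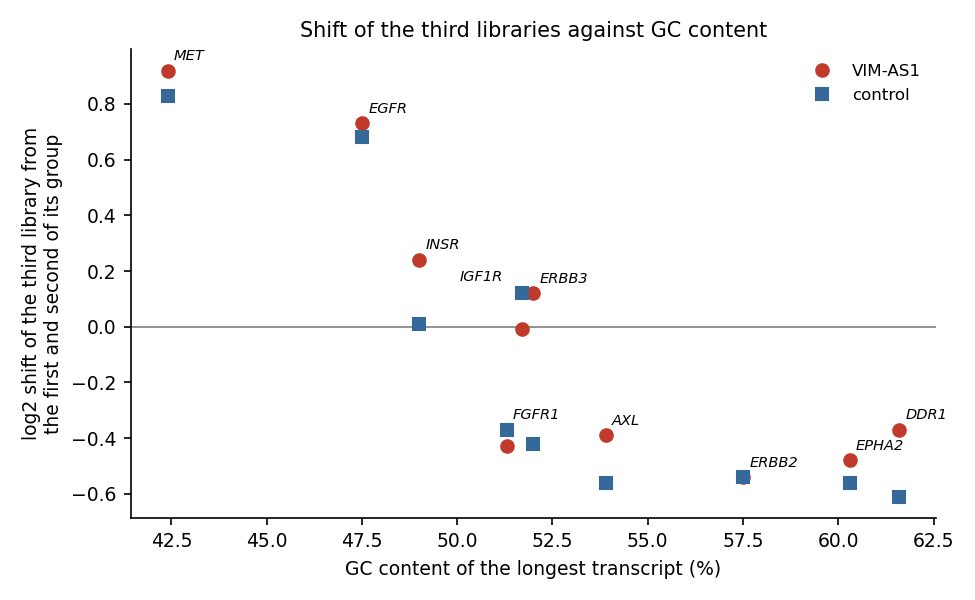
Log2 shift of the third library from the mean of the first and second libraries of its group, against the GC content of the longest transcript, for the 10 receptor genes in VIM-AS1 and control libraries. MET at 42.4% GC lies at 0.92 with VIM-AS1 and 0.83 in the controls, and EPHA2 at 60.3% GC at -0.48 and -0.56.

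Over the 6 libraries 6 of 45 member pairs had a Pearson r of at least 0.9 on the log2 scale: AXL and EPHA2 had 0.99, EPHA2 and FGFR1 0.96, AXL and FGFR1 0.95, ERBB2 and EPHA2 0.94, EGFR and MET 0.94, and ERBB2 and AXL 0.91. DDR1, whose shift in library 3 was like those of ERBB2, EPHA2 and AXL, had 0.78 with ERBB2, 0.64 with EPHA2 and 0.57 with AXL. IGF1R and INSR had 0.07. EGFR and DDR1 went opposite ways across libraries (r = -0.86), as did ERBB3 and IGF1R (r = -0.98). The genes most like MET over the 6 libraries, among 9757 with a mean of at least 100, were SLC30A1, SAAL1 and EAF1 (r of 0.998 for each). Those most like IGF1R were BUD13, RFC5 and ZNF618 (0.993, 0.990 and 0.988), and those most like ERBB3 were DICER1-AS1, INO80C and RMI2 (0.990, 0.987 and 0.985). Other genes came close over only 6 libraries. Of the 9757 compared, 286, 127 and 64 had an r of at least 0.95 with MET, IGF1R and ERBB3.

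The stretch of 250 bases before the start site was available from RefSeq (GRCh38.p14) for 8 of the 10 members, and 4 are shown because they set a receptor that rose without overlap (IGF1R) beside its relative that did not pass (INSR), and the low-GC transcripts MET and EGFR beside both. Capitals mark GC boxes, the letters GGGCGG on either strand, the motif bound by SP1-type factors. The stretches are IGF1R at chr15:98648289-98648538 (plus strand), INSR at chr19:7294415-7294664 (minus strand), MET at chr7:116671946-116672195 (plus strand) and EGFR at chr7:55018767-55019016 (plus strand), each printed 5′ to 3′ on its gene's strand.
IGF1R: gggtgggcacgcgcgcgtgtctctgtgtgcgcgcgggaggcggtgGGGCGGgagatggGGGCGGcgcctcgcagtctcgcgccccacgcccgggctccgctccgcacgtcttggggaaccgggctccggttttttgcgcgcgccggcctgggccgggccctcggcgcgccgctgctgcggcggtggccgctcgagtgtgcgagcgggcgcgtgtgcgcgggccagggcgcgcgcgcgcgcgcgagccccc
INSR: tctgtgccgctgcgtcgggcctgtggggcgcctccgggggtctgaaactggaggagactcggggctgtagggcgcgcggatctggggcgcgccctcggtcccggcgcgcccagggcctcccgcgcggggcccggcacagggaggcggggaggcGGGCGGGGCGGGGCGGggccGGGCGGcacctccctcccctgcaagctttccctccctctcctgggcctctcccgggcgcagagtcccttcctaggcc
MET: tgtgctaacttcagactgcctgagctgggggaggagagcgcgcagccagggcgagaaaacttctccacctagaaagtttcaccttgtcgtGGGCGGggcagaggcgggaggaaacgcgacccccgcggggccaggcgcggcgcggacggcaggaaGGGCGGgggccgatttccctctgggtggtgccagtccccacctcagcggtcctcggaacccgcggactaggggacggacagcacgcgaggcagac
EGFR: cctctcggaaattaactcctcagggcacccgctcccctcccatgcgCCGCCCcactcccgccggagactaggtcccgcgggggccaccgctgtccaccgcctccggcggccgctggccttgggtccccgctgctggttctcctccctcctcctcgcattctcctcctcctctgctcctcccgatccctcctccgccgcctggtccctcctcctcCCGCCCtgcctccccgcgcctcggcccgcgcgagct

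A GC box was found in 6 of the 8 stretches, against 42.2% of 27305 promoters of the same length. INSR held 4, 3 of which share bases with a neighbour, and IGF1R, MET, EGFR and AXL held 2 each and EPHA2 held 1. The 81.2% GC of the IGF1R stretch and the 78.4% of INSR were the highest of the 8, against a median of 57.6% over all promoters. The letters CCGGAA, the core bound by ETS factors, were found on either strand in ERBB2 only, with 2 matches, and in 14.8% of all promoters. The letters GTAAACA, a forkhead core, were found on either strand in 0 of the 8 and in 3.01% of all promoters. The stretches of ERBB2 and DDR1 held no GC box. Whether these motifs bear on the levels was not tested. The stretches precede RefSeq start sites, which need not match the GENCODE gene starts given above. That of DDR1 (chr6:30880720-30880969) lies inside the GENCODE gene, and those of ERBB2, AXL and EPHA2 run past the GENCODE start. Those of INSR and MET end upstream of it.

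Other receptor tyrosine kinases went both ways. Of 48 further receptors 37 were in the files and 29 were tested; with the term 4 rose, 7 fell and 18 did not pass (37.9% called, against 19.4% of all tested genes; 0 and 0 without VIM-AS1 replicate 3 or control replicate 3), with a median log2 fold change of 0.07. FGFR4 rose, with 1312, 1695 and 988 normalized reads with VIM-AS1 against 834, 1048 and 654 in the control libraries (log2 fold change 0.65, limma with the term, adjusted p = 0.000775), as did EPHB4 (0.42). PDGFRB fell, with 1027, 1123 and 806 against 1525, 1851 and 1092 (-0.58, limma with the term, adjusted p = 0.000936). PDGFRB also stands among the fibroblast markers, of which 3 of 5 tested fell and 1 rose; the part of such cells was not tested. FGFR4, EPHB4 and PDGFRB were singled out after their values were seen. Among receptors with few reads FGFR2 fell, with 12.6, 18.6 and 25.6 normalized reads against 40.3, 47.6 and 41.1 (-1.19 ± 0.33), and EPHA7 fell (-1.39 ± 0.36). In limma without the term 0 of the 154 tested genes of the 7 pathway lists passed, as in edgeR, while with the term 40 rose and 16 fell and with the replicate block 45 and 22. Without the third library of either group 3 rose and 3 fell, without VIM-AS1 replicate 2 the numbers were 21 and 9, and without VIM-AS1 replicate 1 or control replicate 2, 10 fell.

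Of 25 tested genes of the RAS-ERK pathway 12 rose, 1 fell and 12 did not pass with the term (52% called), with a median log2 fold change of 0.37. Over all tested genes 11.5% rose and 7.94% fell, with a median of -0.02, and over those with a mean of at least 100, 23% and 9%, with a median of 0.11. Whether the list differs from these was not tested. With the replicate block 13 rose and 3 fell, and without VIM-AS1 replicate 3 or control replicate 3, 1 and 0. The ETS factor ETV4, which ERK signalling induces, had 961, 988 and 624 normalized reads with VIM-AS1, against 253, 363 and 184 in the control libraries (log2 fold change 1.71 ± 0.13, limma with the term, adjusted p = 1.46e-07; without it 0.0626). ETV5 (1.56 ± 0.29) and the ERK phosphatase gene DUSP4 (1.08 ± 0.22) rose as well. EGR1, an immediate early factor, was the 1 gene of the list that fell (-0.47, limma with the term, adjusted p = 0.00234).

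Of 30 tested genes that restrain or process the receptors, 7 rose, 1 fell and 22 did not pass (26.7% called), with a median of 0.11. The share that rose and the median were close to the 23% and 0.11 of the genes whose mean reached 100, while 1 of 30 fell against their 9%. Some genes of this list, such as GRB14, had lower means than that. With the replicate block 9 rose and 2 fell, under library size scaling 4 and 0, and without the third library of either group 1 and 0. UBASH3B, a phosphatase that binds the ubiquitin ligase CBL, had 256, 259 and 375 normalized reads with VIM-AS1, against 122, 123 and 152 in the control libraries (log2 fold change 1.14 ± 0.14, limma with the term, adjusted p = 2.29e-05). SPRY1, a Sprouty inhibitor, rose (0.83 ± 0.26), and GRB14, an adaptor that inhibits the insulin receptor, fell (-1.38 ± 0.45). CBL itself was at 787, 770 and 896 normalized reads with VIM-AS1, against 775, 790 and 886 in the controls. Of 21 tested adaptors and substrates 6 rose, 2 fell and 13 did not pass (38.1% called, against 19.4% of all tested genes), with a median of 0.12, and 1 rose and 1 fell without the third library of either group. Among genes with a mean of at least 100, 23% rose and 9% fell. The RAS exchange factor gene SOS2 fell as well as GRB7 (-0.65 ± 0.21).

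Of 24 tested genes of the PI3K-AKT-FOXO arm 5 rose, 2 fell and 17 did not pass (29.2% called, against 19.4% of all tested genes). Among genes with a mean of at least 100, 23% rose and 9% fell, and their median of 0.11 was also that of the list. In this arm 0 genes rose and 1 fell without the third library of either group. MTOR, the kinase of the growth-controlling complexes downstream of AKT, had 1491, 1450 and 1633 normalized reads with VIM-AS1, against 912, 1036 and 1028 in the control libraries (log2 fold change 0.62 ± 0.10, limma with the term, adjusted p = 0.000282). FOXO4, a forkhead factor that AKT holds in the cytoplasm, had 352, 328 and 269 normalized reads with VIM-AS1, against 744, 790 and 458 (-1.04 ± 0.12, limma with the term, adjusted p = 1.23e-05; without it 0.132). Of 19 tested ligands 2 rose, 3 fell and 14 did not pass (26.3% called, against 19.4% of all tested genes), with a median of -0.02. Without the third library of either group 0 rose and 1 fell. The number that rose was also 0 under library size scaling and without VIM-AS1 replicate 1, VIM-AS1 replicate 2 or control replicate 2, and the number that fell was 2 without VIM-AS1 replicate 1 and 1 without VIM-AS1 replicate 2. With the term, edgeR, DESeq2, limma without a filter and limma with a pseudocount of 0.1 each called 1 ligand higher. Of these, edgeR called 4 lower and the others 3. EFNB2, a ligand of EPHB4, was among those that rose (0.81 ± 0.22).

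**Figure D4:**
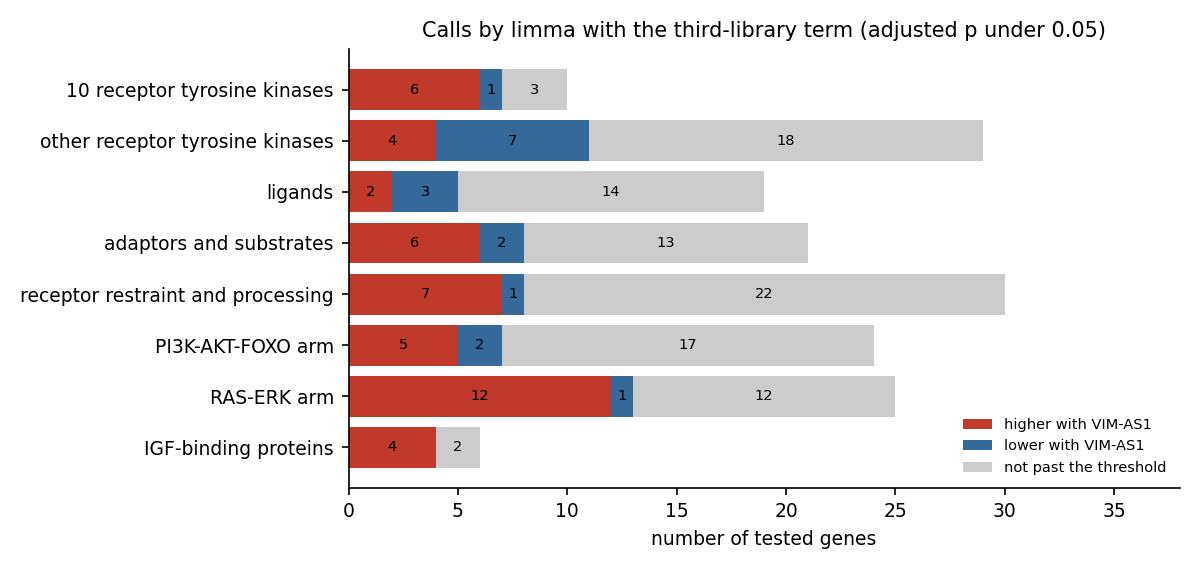
Number of tested genes that were higher with VIM-AS1, lower with VIM-AS1 or not past the threshold in limma with the term for the third libraries, for the 10 receptors and 7 pathway lists. Of the 10 receptors 6 were higher and 1 lower, and of 29 other receptor tyrosine kinases 4 were higher and 7 lower.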

How the data were processed

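RNA sequencing libraries were made from 1.3 µg of total RNA each. The submitters' processing notes name fastp, HISAT2, featureCounts and the hg38 build. Their versions, the annotation and the strand setting are not given in the sources used here. Values as deposited are a signal per gene: 100% of them were whole multiples of 1 step per library within 0.01 read, so they are read counts divided by 1 factor per library, and these factors equalled DESeq2's size factors for the recovered reads. Recovered reads numbered 14762893 to 19889745 per library. No pair of libraries within a group agreed within sampling noise (chi-square per degree of freedom of 7.14 to 69.2).

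Identifiers, exon lengths and GC content came from GENCODE 29 on GRCh38. An intensity-trend fit in limma (R 4.3.3, limma 3.58.1) was run on log2(value + 1), which understates changes of genes with few reads, for genes with a mean of at least 1, two-sided, with Benjamini-Hochberg adjustment over all tested genes. The unit decided this test over the count test that raw counts would have had. A second fit added a term for the third library of each group. Deviations from the group means over 13175 genes had a Pearson r of 0.32, 0.72 and 0.84 for same-numbered libraries. VIM-AS1 replicate 1 had a higher r, 0.42, with control replicate 2, and control replicate 1 had 0.33 with VIM-AS1 replicate 2. Deviations within a group cancel out, so these values depend on each other and do not show that the first libraries match. The labels number the libraries but state no pairing, and the replicate block assumes it. edgeR (version 4.0.16), DESeq2 (version 1.42.0) and limma-voom on recovered reads, other scalings and filters, a pseudocount of 0.1, the replicate block, a spline correction for GC content and length and left-out libraries were alternatives. Simulated data were run through limma, edgeR, DESeq2 and limma-voom without a term, with the term and with the replicate block. The spline correction, the other scalings and filters, the pseudocount of 0.1 and the left-out libraries were not simulated.

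The members, the gene lists and the tests were chosen with earlier results of these data known. Named genes were the 10 members, up to 3 genes per list with the largest change past the threshold with the term, and the 3 genes most like each of the 3 members with the smallest p; others are named as chosen after their values were seen. The list genes not in the files were not analysed here. Results for a few list genes are not reported here.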

Additional observations from a re-analysis of the deposited data

How the results depend on the processing

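Without the term for the third libraries, limma called 0 members and 0 pathway-list genes in either direction. With the replicate block it called 7 members higher and 1 lower, and 45 and 22 list genes. With the correction for GC content and length it called 4 and 1 members and 25 and 8 list genes, and with that correction and the replicate block together 7 and 1 members and 49 and 18 list genes. DESeq2 called 5 and 3 list genes, library size scaling 1 higher, and the first and second libraries alone 3 and 3. With the term, 6 members were higher and 1 lower. That count was 0 and 0 with only the first and second libraries, where list genes numbered 3 and 3, and leaving out single libraries gave 0 to 6 members higher and 0 to 1 lower, and 3 to 43 list genes higher and 3 to 17 lower. Beside the fit with the term, the replicate block changed the call of ERBB2 and of no other member. Over all genes, limma without the term called 3 higher and 2 lower, DESeq2 133 and 220, the replicate block 3315 and 2256, and the GC and length correction 1464 and 702. Fewer libraries remain where some were left out; the cause of the other changes was not tested. INSR (0.02) took the opposite sign under library size scaling (-0.04 in both fits), with the correction for GC content and length with or without the replicate block (-0.06), with the first and second libraries alone (-0.05), and without single libraries (range -0.05 to 0.11 with the term, -0.05 to 0.08 without it). DDR1 (-0.07) did so in the third libraries alone (0.09) and without single libraries (range -0.28 to 0.07 without the term, -0.15 to 0 with it). The median level of the 10 members per kb was 157 normalized reads by union exon length and 202 by the longest transcript. Levels of ERBB3, ERBB4 and NRG1 are limited by depth.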
